A study of Mus musculus with 6 samples.

Results

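Translation initiation factors are the proteins that bring a ribosome to the start codon of an mRNA. Their genes were taken from the array annotation as every symbol made of Eif and a digit from 1 to 6, without the Eif2ak kinases. The rule gave 43 genes, measured by 120 probe sets, among 18194 genes with a probe set of their own. The cells were CT26, a colon carcinoma line of BALB/c mice. The 3 control samples came from cells given the empty pU6-m3 vector, and the 3 shSep15 samples from cells given pU6-m3 with a hairpin against Sep15, a selenoprotein of the endoplasmic reticulum. Only 1 hairpin was used, and whether each line was a clone or a pool of transfected cells is not given in the labels. Total RNA of each sample went on an Affymetrix Mouse430_2 array of its own. Nothing says that the 3 samples of a group came from separate cultures, so p-values compare the groups only with the scatter among samples, which may be technical. Values are log2 signals, differences are shSep15 minus control, and a gene was called where the limma adjusted p was under 0.05.

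An initiator tRNA is carried to the small ribosomal subunit by eIF2, while eIF1, eIF1A, eIF3 and eIF5 help the subunit scan for the start codon. The mRNA is delivered by the cap complex, in which Eif4e binds the cap, the Eif4g proteins form the scaffold and the Eif4a helicases unwind the message. The exchange factor eIF2B reloads eIF2 with GTP and is the step blocked when stress kinases phosphorylate eIF2. The supply of free Eif4e is limited by the Eif4e-binding proteins, which mTOR inactivates, and Eif4e is known as a gene whose excess can transform cells.

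The targeted gene Selenof (the current symbol of Sep15) read 12.41, 12.44 and 12.35 on the control arrays and 9.34, 9.59 and 9.50 on the shSep15 arrays. Array medians lay between 5.83 and 5.87. A background level of 6.02 was set from the 95th percentile of 80 olfactory or vomeronasal receptor probe sets, and genes whose means stayed under it in both groups are described as near background. Control 3 stood apart on the array control for the 3′ part of 18S ribosomal RNA (8.31, against 6.01 to 6.53 on the other arrays). Some markers of other cell types and of colon epithelium differed between the groups. Those called were 25% of the colon and 20% of the endothelial markers, against 25.0% of all genes. For leukocyte markers the share was 42.9%, and for fibroblast markers 83.3%. Of 12 colon markers, 7 were near background, Cdh1 and Vil1 among them, and 3 fell: Krt18 by 2.16, Krt20 by 2.13 and Lgals4 by 1.00 (limma adjusted p from 9.66e-06 to 0.00217). The mean signal over all 12 ran from 5.85 to 6.03 on the control arrays and from 5.36 to 5.54 on the shSep15 arrays. Of 7 leukocyte markers, 4 were near background, Ptprc among them, and 3 fell (Cd68 by 1.48, Lyz2 by 0.47 and the near-background Itgam by 0.37), with a mean signal of 5.81 to 5.99 against 5.57 to 5.66. Of 5 endothelial markers, 3 were near background, Pecam1 and Cdh5 among them, and Vwf fell by 1.45 (limma adjusted p = 0.00497), with a mean signal of 5.29 to 5.54 against 5.14 to 5.20. Of 6 fibroblast markers, 3 rose (Pdgfra by 1.35, Col1a1 by 1.32 and Col1a2 by 0.64) and 2 fell (Pdgfrb by 3.36 and Dcn by 1.72). Their mean signal, which joins these opposite changes, ran from 8.18 to 8.23 on the control arrays and from 7.73 to 8.07 on the shSep15 arrays. The part of these markers in the results on initiation factors was not tested.

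Initiation factor genes went in both directions. In shSep15 cells, 9 of the 43 passed the test upward, against 12.2% of all genes, and 10 downward, against 12.8% of all genes; 24 were not called (limma). The 19 called are 44.2% of the members, against 25.0% of all genes. The members are bright genes, however: 39 lay above the background level, 48.7% of these were called, and the same share was 39.2% for all genes above it. Among the 553 genes at least as bright as the median member, 51.0% were called, a share near that of the members. The median difference over the members was 0.05, against 0.01 over all genes. Most differences were small: only 8 of the 19 reached a log2 of 0.5, and 2 a log2 of 1. Of the 4543 called among all genes, 3147 reached 0.5 and 987 reached 1. Of the 282 called among genes at least as bright as the median member, 94 reached 0.5 and 17 reached 1. The 3 shSep15 arrays lay apart from the 3 control arrays on 25 of the 43 members, against 38.1% of all genes. All 25 were among the 39 members above background, and 6138 of 11131 genes above background were likewise apart. Of the 553 genes at least as bright as the median member, 371 were apart. The 10 falls became 6 without control 1 or 3 or shSep15 1 or 2, 5 without shSep15 3 and 7 without control 2. Over all genes, the 2323 falls became 1800 to 2308 when 1 array was left out. Without the intensity trend of the fit, 8 members lost their call (Eif1ad, Eif2s3x, Eif3a, Eif3h, Eif3i, Eif4b, Eif4ebp1 and Eif5), which left 7 higher and 4 lower. Over all 18194 genes, that fit gave 2190 higher and 2279 lower, against 2220 and 2323 with the trend. Of the 20 members above background that were not called, 19 had a 95% confidence interval within 0.5 of 0, a change of less than 1.41-fold; the exception was Eif2d.

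**Figure D1:**
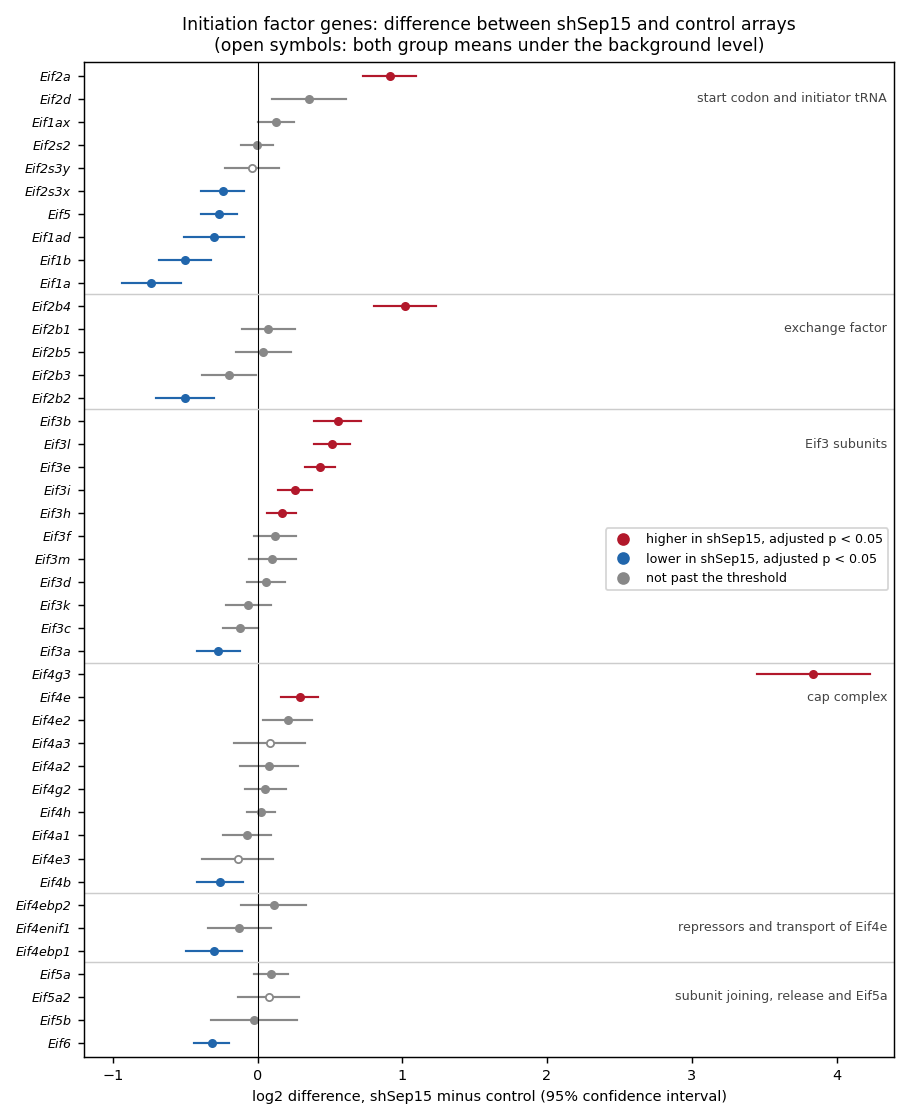
Log2 difference between shSep15 and control arrays (horizontal axis) of the 43 initiation factor genes, with limma 95% confidence intervals (lines), ordered by role. Red genes were higher and blue genes lower at an adjusted p under 0.05. Eif4g3 (3.84) stands far to the right of all other members, which lie between −0.73 and 1.02.

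The promoters of the members held E-box and ETS letters, in genes that rose, fell or were not called. RefSeq promoters (GRCm38.p6) were at hand for 34 of the 43 members, and the 250 bases before each transcript start were searched on both strands for 6 motifs. The E-box CACGTG, the site bound by Myc and Max, was present in 8 of the 34 (23.5%), against 6.86% of all genes; of the 8, 1 rose (Eif4e), 1 fell (Eif1b) and 6 were not called. The ETS core CCGGAA was present in 15 (44.1%), against 13.6% of all genes, and of these 2 rose, 2 fell and 11 were not called. CCAAT was found in 11 (37.5% of all genes), TGATGNAA, the core bound by Atf4, in 1 (3.91%), the YY1 motif in 1 (0.618%) and the NRF1 motif in 4 (4.23%). All genes here are the 27025 with a RefSeq promoter, silent ones included, and a match is a description of letters, not of binding. The 100 bases before the start are shown for the 3 members that rose most. Eif3l and Eif1b are added as called members with an absolute difference of at least 0.5 and an E-box or ETS core in that window. Eif4e, with a smaller difference, was added by choice. The windows of other called members with smaller differences were not examined. The windows are chr4:137993355-137993454 (plus strand) for Eif4g3, chr5:31193140-31193239 (minus strand) for Eif2b4, chr3:58525721-58525820 (plus) for Eif2a, chr3:138527168-138527267 (plus) for Eif4e, chr15:79075123-79075222 (plus) for Eif3l and chr9:120492506-120492605 (plus) for Eif1b. Eif4g3 and Eif4e have 2 listed starts each, and the one whose window holds more motif letters is shown. Capitals mark CACGTG and CCGGAA on either strand.
Eif4g3: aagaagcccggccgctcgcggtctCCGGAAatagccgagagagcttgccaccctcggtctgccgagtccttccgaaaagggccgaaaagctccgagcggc
Eif2b4: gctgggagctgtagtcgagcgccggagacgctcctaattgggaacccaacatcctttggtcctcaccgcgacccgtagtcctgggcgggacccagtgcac
Eif2a: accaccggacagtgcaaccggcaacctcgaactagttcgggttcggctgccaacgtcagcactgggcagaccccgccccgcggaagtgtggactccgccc
Eif4e: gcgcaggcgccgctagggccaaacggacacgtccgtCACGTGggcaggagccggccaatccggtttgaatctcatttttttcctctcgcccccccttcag
Eif3l: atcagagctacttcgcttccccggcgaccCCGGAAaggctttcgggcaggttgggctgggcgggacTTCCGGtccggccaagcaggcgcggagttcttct
Eif1b: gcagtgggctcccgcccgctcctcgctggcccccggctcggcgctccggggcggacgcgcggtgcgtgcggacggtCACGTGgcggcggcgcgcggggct

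Of 10 genes for start codon selection and initiator tRNA delivery, 5 fell (Eif1a, Eif1b, Eif1ad, Eif5 and Eif2s3x), 1 rose (Eif2a) and 4 were not called. These 6 calls compare with 39.2% called among all genes above background and 51.0% among genes as bright as the median member. Eif1a, on chromosome 18, encodes eIF1A, which keeps the scanning ribosome open. It read 11.85, 11.74 and 11.65 on the control arrays and 11.19, 10.88 and 10.98 on the shSep15 arrays. Eif1a thus fell by 0.73 (SE 0.09, limma adjusted p = 0.000474), and its other probe set fell by 0.89. Eif1ax, on the X chromosome, encodes a nearly identical protein and was not called: its brightest probe set differed by 0.13 (95% interval 0.01 to 0.26, limma adjusted p = 0.153), and a dimmer probe set was higher by 0.47. The mean of the Eif1ax probe sets was called higher (0.37, limma adjusted p = 0.0128). That mean includes a probe set near background, with means of 5.32 and 5.83 and a difference of 0.51. The difference between the changes of Eif1a and Eif1ax was not tested, and probe sets of close copies can share signal. Of 266 genes above background on chromosome 18, 122 were lower and 16 higher, with a median of −0.30; the part of this in the fall of Eif1a was not tested.

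Eif1b, a paralogue of the start codon factor eIF1, read 10.46, 10.60 and 10.54 in control and 9.98, 10.04 and 10.06 in shSep15 samples. The groups were well apart, a fall of 0.50 (SE 0.08, limma adjusted p = 0.00181) on its only probe set. Eif5, which makes eIF2 hydrolyse its GTP at the start codon, read 12.15, 12.10 and 12.18 against 11.86, 11.95 and 11.83, a fall of 0.26 (limma adjusted p = 0.00835). Of its 4 other probe sets above background, 1 also fell and 3 were not called, and the mean of all probe sets gave −0.10 (limma adjusted p = 0.373). Eif1ad, whose protein resembles eIF1A, read 10.27, 10.46 and 10.28 against 10.10, 9.94 and 10.06, a difference of −0.30 close to the threshold (limma adjusted p = 0.0472). The call of Eif1ad was lost without any 1 of the 6 arrays (limma adjusted p from 0.0646 to 0.160), and its other probe set gave 0.06.

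Of the eIF2 subunits measured above background, Eif2s2 was not called and Eif2s3x fell. Eif2s2, the beta subunit, read 13.12, 13.02 and 13.12 in control and 13.16, 13.07 and 13.03 in shSep15 samples, a difference of 0.00 (95% interval −0.11 to 0.11, limma adjusted p = 0.994), and its 5 other probe sets were not called. Eif2s3x, the gamma subunit that holds the initiator tRNA, read 12.05, 11.93 and 11.94 against 11.77, 11.81 and 11.63, a fall of 0.24 (limma adjusted p = 0.0318). That call was lost without control 1, 2 or 3 or shSep15 1 or 3 (limma adjusted p from 0.0535 to 0.124), although another probe set of Eif2s3x fell by 0.67 (limma adjusted p = 0.00994) and the mean of its 3 probe sets by 0.38 (limma adjusted p = 0.00822). Its Y-linked copy Eif2s3y was near background, with means of 4.08 and 4.04.

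Eif2a and Eif2d encode proteins that can deliver a tRNA without eIF2. Eif2a, on chromosome 3, read 9.85, 9.68 and 9.74 on the control arrays and 10.70, 10.68 and 10.64 on the shSep15 arrays. The rise of 0.91 (SE 0.08, limma adjusted p = 7.46e-05) amounts to 1.88-fold, and the other probe set of Eif2a above background rose by 0.93 (limma adjusted p = 0.0451). With 1 more probe set near background included, the mean gave 0.58 (limma adjusted p = 0.00665). Eif2d was higher by 0.35 (95% interval 0.10 to 0.61), which was not past the threshold (limma adjusted p = 0.0600), and none of its 4 probe sets above background was called. Chromosome 3 held 544 genes above background, 231 of them higher and 67 lower, with a median of 0.26; the part of this in the rise of Eif2a was not tested.

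Of the 5 genes of the exchange factor eIF2B, Eif2b4 rose, Eif2b2 fell and 3 were not called. The share called, 40%, was near the 39.2% of all genes above background. Eif2b4, the delta subunit, read 9.01, 8.96 and 8.97 in control and 10.12, 9.96 and 9.91 in shSep15 samples. That is a rise of 1.02 (SE 0.09, limma adjusted p = 9.32e-05), or 2.03-fold, on a single probe set. Eif2b2, the beta subunit, read 10.88, 10.87 and 10.87 against 10.51, 10.39 and 10.21. Eif2b2 fell by 0.50 (SE 0.09, limma adjusted p = 0.00335), and its 2 other probe sets fell as well, by 0.52 and 0.36. Beta and delta are regulatory subunits that bind eIF2. The remaining regulatory subunit, Eif2b1 (alpha), differed by 0.07 (95% interval −0.11 to 0.26). Of the catalytic subunits, Eif2b5 (epsilon) differed by 0.04 (−0.15 to 0.23) and Eif2b3 (gamma) by −0.20 (−0.39 to −0.01, limma adjusted p = 0.143). The calls of Eif2b4 and Eif2b2 held in each of the 12 alternative fits that were run.

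**Figure D2:**
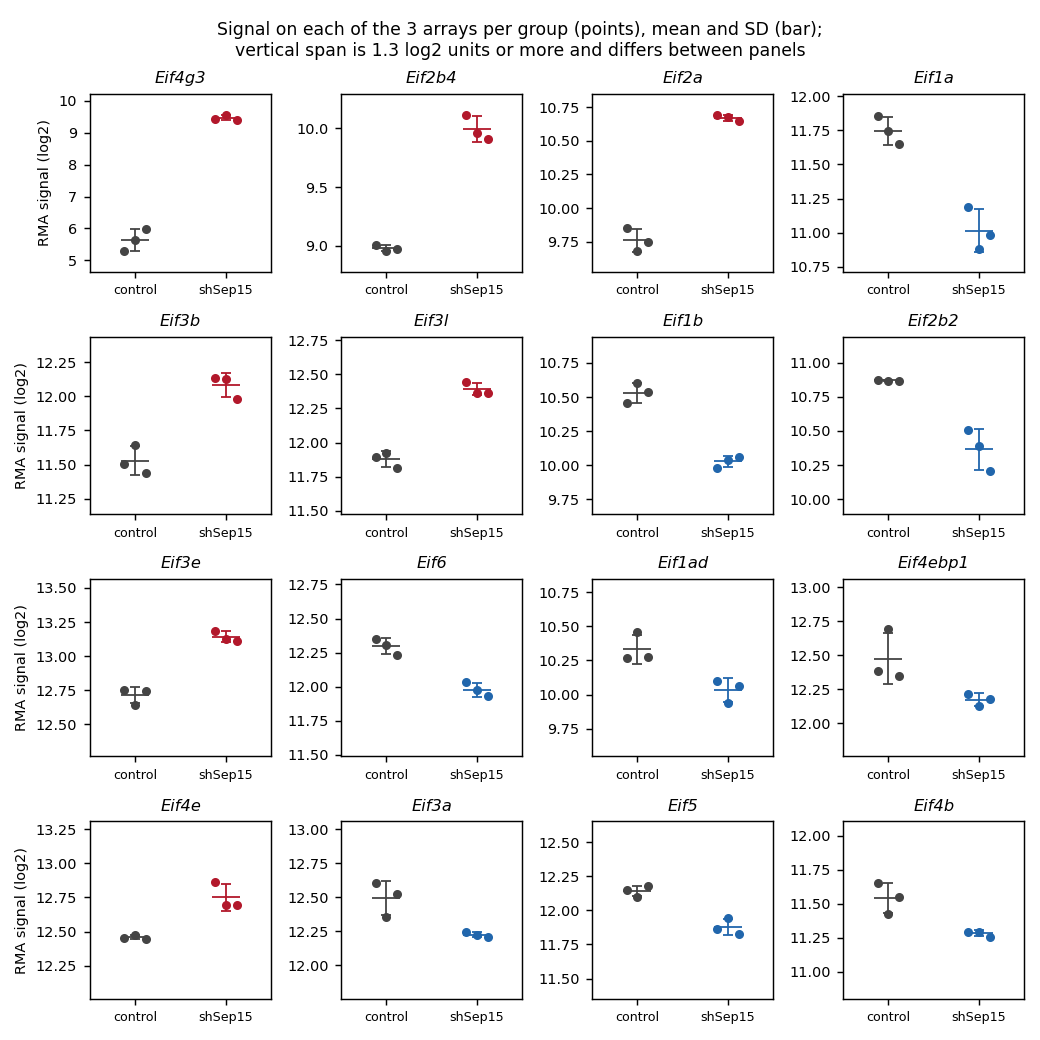
RMA signal (log2, vertical axis) of the 16 called members with the largest differences on each of 3 control and 3 shSep15 arrays (points), with group mean and SD (bar). The groups do not overlap in any of the 16 panels, and the step is widest in Eif4g3, from 5.63 to 9.47; vertical axes do not start at 0.

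The eIF3 complex is the scaffold that joins the small subunit to the cap complex. Of 11 subunit genes measured, all of them above background, 5 rose (Eif3b, Eif3l, Eif3e, Eif3i and Eif3h), 1 fell (Eif3a) and 5 were not called. The share called, 54.5%, was near the 51.0% of genes as bright as the median member. Eif3b, whose protein forms a core module with Eif3a and Eif3i, read 11.50, 11.64 and 11.44 in control and 12.14, 12.13 and 11.98 in shSep15 samples. It rose by 0.55 (SE 0.07, limma adjusted p = 0.000640). Eif3i, its partner in that module, rose by 0.26 (limma adjusted p = 0.00690), and the other probe set of Eif3i by 0.39. Eif3i lies on chromosome 4, where 225 of 687 genes above background were higher and 60 lower; the part of this in its rise was not tested. Eif3a, the largest subunit, read 12.60, 12.36 and 12.53 against 12.24, 12.22 and 12.21. It fell by 0.27 (limma adjusted p = 0.0165), but the call was lost without control 1 or 3 or shSep15 2 or 3 (limma adjusted p from 0.0539 to 0.0685). Of its 3 other probe sets, 1 fell by 0.49 and 2 were not called.

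Eif3e rose on every probe set above background, and Eif3l on its bright one. Eif3e read 12.75, 12.64 and 12.75 in control and 13.19, 13.13 and 13.11 in shSep15 samples, a rise of 0.43 (SE 0.05, limma adjusted p = 0.000200); its 2 other bright probe sets rose by 0.54 and 0.58. Eif3l read 11.89, 11.92 and 11.81 against 12.44, 12.36 and 12.37, a rise of 0.51 (SE 0.05, limma adjusted p = 0.000189). A dim probe set of Eif3l went from a control mean of 5.66, under the background level, to 6.21. It was counted as above background only through the shSep15 samples. Eif3h was higher by 0.17, the smallest difference called, and lost the call without any 1 array (limma adjusted p from 0.0506 to 0.103). Eif3e, Eif3l and Eif3h lie on chromosome 15, where the median over 461 genes above background was 0.03, with 90 higher and 86 lower. Eif3d, on the same chromosome, differed by 0.06 (95% interval −0.07 to 0.19). The other subunits that were not called were Eif3f (0.12), Eif3m (0.10), Eif3k (−0.06) and Eif3c (−0.12), each with an interval within 0.5 of 0.

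Within the cap complex, Eif4g3 showed the widest change of all members. Eif4g3, on chromosome 4, encodes a scaffold protein related to Eif4g1. Its brightest probe set (1426833_at) read 5.29, 5.62 and 5.98 on the control arrays, all under the background level, and 9.44, 9.57 and 9.41 on the shSep15 arrays. The fitted rise was 3.84 (SE 0.17, limma adjusted p = 2.17e-06). Because the control signal was not above background, the size is not exact; the shSep15 mean lay 3.45 above the background level, a step of 11.0-fold. The change was seen on that probe set alone. A second one (1446145_at), read at 6.46, 6.50 and 6.92 in control and 6.50, 6.50 and 6.54 in shSep15 samples, differed by −0.12 (limma adjusted p = 0.674), and 2 further ones were near background and differed by −0.05 and 0.02. The mean of the 4 gave 0.92 (limma adjusted p = 0.000180). Chromosome 4 held 225 higher and 60 lower genes of 687 above background, with a median of 0.16; the part of this in the rise was not tested.

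Eif4e, the cap-binding subunit, rose modestly. It read 12.45, 12.48 and 12.45 in control and 12.87, 12.69 and 12.69 in shSep15 samples on its brightest probe set, a rise of 0.29 (SE 0.06, limma adjusted p = 0.00525). Another probe set rose from 9.44 to 10.36, by 0.91 (limma adjusted p = 0.000171). A dim one was higher by 0.50, from a control mean of 5.76, under the background level, to 6.26. The fourth differed by 0.09 and was not called, and the mean of the 4 was 0.45 (limma adjusted p = 0.00484). Eif4e lies on chromosome 3. Eif4e2, a cap-binding relative that represses translation, was not called on its brightest probe set (0.21, limma adjusted p = 0.0923), although 1 of its 4 other probe sets rose by 0.44. Eif4e3 was near background in both groups.

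Neither helicase of the cap complex was called, and of the cofactors Eif4b fell. Eif4a1 read 13.40, 13.30 and 13.20 in control and 13.39, 13.18 and 13.12 in shSep15 samples, a difference of −0.07 (95% interval −0.24 to 0.09). Its paralogue Eif4a2 read 12.10, 11.78 and 11.88 against 12.12, 11.95 and 11.92, a difference of 0.08 (−0.12 to 0.28). The groups overlapped for both helicases. Eif4h differed by 0.02 (−0.07 to 0.12) and Eif4g2, a scaffold that lacks the Eif4e-binding site, by 0.05 (−0.09 to 0.19). The helicase cofactor Eif4b read 11.65, 11.43 and 11.55 against 11.29, 11.29 and 11.26, a fall of 0.26 (limma adjusted p = 0.0301) that was lost without control 1 or 3 or any 1 shSep15 array (limma adjusted p from 0.0718 to 0.107). Another probe set of Eif4b fell by 0.52 (limma adjusted p = 0.00520), and the mean of its 3 probe sets by 0.30 (limma adjusted p = 0.0160). Eif4a3, a helicase of the exon junction complex, was near background on its only probe set of its own (5.77 and 5.85).

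Among the proteins that restrain Eif4e, Eif4ebp1 was lower and Eif4ebp2 depended on the probe set. Eif4ebp1 read 12.38, 12.69 and 12.35 in control and 12.22, 12.13 and 12.18 in shSep15 samples, a fall of 0.30 (limma adjusted p = 0.0381). Another bright probe set of Eif4ebp1 fell by 0.53 (limma adjusted p = 0.00106), and the remaining, dimmer one was not called. Without control 2 or any 1 shSep15 array the call on the brightest probe set was lost (limma adjusted p from 0.0531 to 0.141), and without control 2, the highest array, the difference was −0.19. Eif4ebp2 differed by 0.11 on its brightest probe set (95% interval −0.11 to 0.34, limma adjusted p = 0.540), while 2 others rose by 0.50 and 0.87 and the mean of its probe sets by 0.31 (limma adjusted p = 0.0409). Eif4enif1, which carries Eif4e into the nucleus, differed by −0.13 (limma adjusted p = 0.457).

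Of the 4 factors of subunit joining, subunit release and Eif5a, 1 was called. Eif6 keeps the large ribosomal subunit from joining too early. Its brightest probe set (1427578_a_at) read 12.35, 12.31 and 12.23 on the control arrays and 12.03, 11.97 and 11.93 on the shSep15 arrays, a fall of 0.32 (SE 0.05, limma adjusted p = 0.00291). The other probe set (1431582_at) went the opposite way, from 7.24, 7.52 and 7.15 to 8.21, 8.18 and 8.32, a rise of 0.93 (SE 0.13, limma adjusted p = 0.000865). Eif6 was the only member with probe sets called in opposite directions, and the mean of both was called higher (0.31, limma adjusted p = 0.0173), so its direction depends on the probe set taken. Eif5a, the hypusine-bearing factor that helps ribosomes through difficult peptide bonds, read 13.29, 13.38 and 13.21 against 13.39, 13.45 and 13.32, a difference of 0.10 (95% interval −0.02 to 0.21). Its paralogue Eif5a2 was near background, and Eif5b, the GTPase that joins the subunits, differed by −0.02 (−0.32 to 0.27).

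Probe sets of a gene often differed in their call. Above background, 26 members had several probe sets, and in 6 of these every one was called in the same direction, while in 8 none was called. The 6 were Eif1a, Eif2a, Eif2b2, Eif3e, Eif3i and Eif3l, of 15 called members among the 26. For Eif3l, the dimmer probe set was above background in the shSep15 samples only. A further 4 called members rested on 1 probe set above background (Eif1b, Eif2b4, Eif3b and Eif3h). Over all 120 probe sets, 22 were higher and 18 lower, against 22.5% called in either direction among all probe sets with 1 gene symbol.

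**Figure D3:**
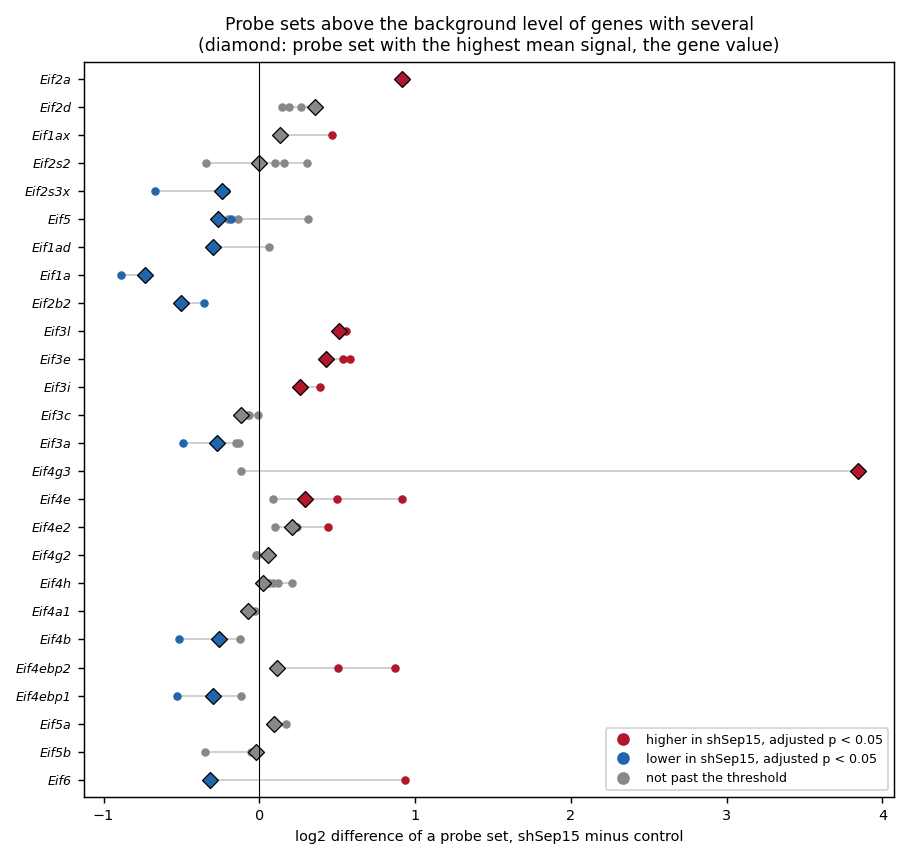
Log2 difference between shSep15 and control arrays (horizontal axis) of each probe set above the background level, for the 26 members with several. Diamonds mark the probe set with the highest mean signal; the span within a gene is widest for Eif4g3 (−0.12 to 3.84), followed by Eif6 (−0.32 to 0.93).

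The list of regulators and partners of initiation held 44 genes, of which 41 were measured. Of these 41, 14 fell and 6 rose, with a median of −0.11; all 41 were above background, where 20.0% of all genes were lower and 19.2% higher. The count of rises dropped to between 2 and 4 without control 2 or 3 or any 1 shSep15 array. Ppp1r15a, a stress-induced subunit of the phosphatase that removes the phosphate from eIF2, fell by 2.38 (limma adjusted p = 5.76e-07). Myc, a transcription factor with many translation genes among its targets, read 11.02, 11.34 and 11.10 in control and 10.15, 9.82 and 10.38 in shSep15 samples, a fall of 1.03 (SE 0.14, limma adjusted p = 0.000854). Mcts1, which works with Denr in reinitiation, fell by 0.95 (limma adjusted p = 0.000138) and Tsc1, a brake on mTOR, by 0.93 (limma adjusted p = 0.000871); the mean of the Tsc1 probe sets gave −0.33 (limma adjusted p = 0.0660). The genes that follow were chosen for their role after their values were seen. Ppp1r15b, the constitutive partner of the same phosphatase, fell by 0.68 (limma adjusted p = 0.000135), and Denr rose by 0.25 (limma adjusted p = 0.0260), a call lost without control 2 or any 1 shSep15 array (limma adjusted p from 0.0604 to 0.0977) and with the mean of its probe sets (0.0869). Tsc2, the partner of Tsc1, rose by 0.47 (limma adjusted p = 0.00472).

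Of the 4 kinases that phosphorylate eIF2, 1 was called. Eif2ak2, the interferon-induced kinase, read 7.42, 7.30 and 7.37 on the control arrays and 7.96, 8.04 and 8.79 on the shSep15 arrays, highest on shSep15 3. The rise of 0.90 (limma adjusted p = 0.0129) was lost without control 2 (limma adjusted p = 0.0571). Eif2ak1 differed by 0.23 (95% interval 0.01 to 0.44, limma adjusted p = 0.145), Eif2ak3 by 0.09 (−0.19 to 0.36) and Eif2ak4, the amino acid sensor, by −0.44 (−0.78 to −0.09, limma adjusted p = 0.0806).

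In the next steps of translation, 3 of 20 measured elongation and termination factors rose and 3 fell, with a median of 0.02. The 6 called are 30% of the list, of which 19 genes were above background, against 39.2% of all genes above background. Pelo, which rescues stalled ribosomes, read 8.04, 7.92 and 7.93 in control and 9.15, 9.11 and 8.99 in shSep15 samples, a rise of 1.12 (SE 0.10, limma adjusted p = 9.57e-05). Eef2k, the kinase that inhibits the elongation factor Eef2, read 9.12, 9.36 and 8.92 against 8.03, 8.02 and 8.27, a fall of 1.03 (SE 0.14, limma adjusted p = 0.000780). Etf1, the release factor that reads stop codons, fell by 0.91 (limma adjusted p = 3.91e-05) and lies on chromosome 18. Dph7, an enzyme of the diphthamide modification of Eef2, rose by 0.53 (limma adjusted p = 0.00859).

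**Figure D4:**
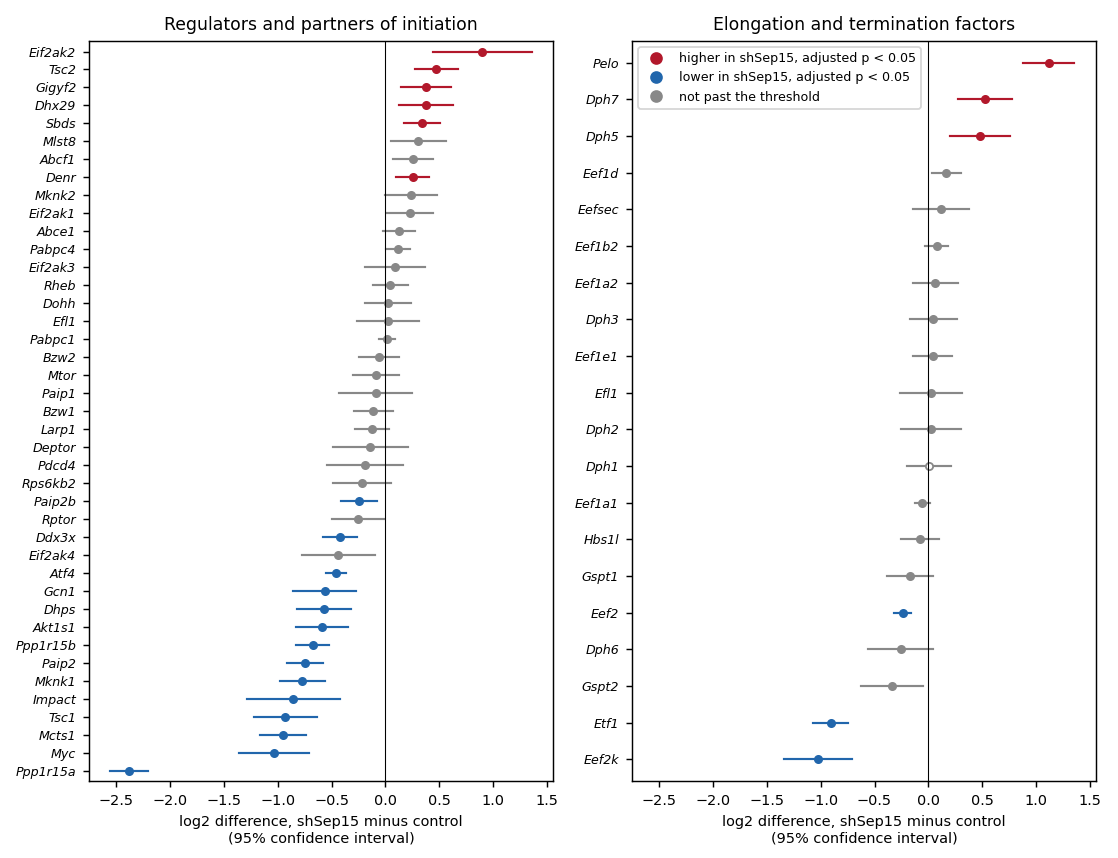
Log2 difference between shSep15 and control arrays (horizontal axes) with limma 95% confidence intervals for 41 regulators and partners of initiation (left) and 20 elongation and termination factors (right). Blue genes, lower in shSep15, outnumber red genes on the left (14 against 6) and equal them on the right (3 each).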

How the data were processed

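The deposited log2 values, a single table for 6 arrays, were computed by the authors with RMA, per the submitters' processing notes; the sources used here state neither its version nor a filter. No further normalization was applied. RMA values carry no detection call, compress differences of dim probe sets and would not show a change of total RNA per cell. After removal of 64 array controls from 45101 probe sets, 45037 entered a limma 3.58.1 fit (R 4.3.3; lmFit, then eBayes with trend) of group alone; two-sided p-values were adjusted by Benjamini-Hochberg over all 45037. Probe sets annotated with 1 symbol (34945) were used; 6 that share an initiation factor symbol with another gene were not, so Eif3j1, Eif3j2 and Eif4ebp3 have no value, and Eif1, Eif2s1, Eif3g and Eif4g1 were not analysed here. A gene's value is its probe set with the highest mean over 6 arrays. Symbols of other genes were updated through RefSeq (GRCm38.p6; 34741 of 34945 matched), which also gave chromosomes and promoters. Precision is limited by 3 arrays per group. Deviations from the group means correlated at 0.39, −0.20 and −0.05 between arrays of the same repeat number. Between arrays of unlike number the correlations ran from −0.38 to 0.43, so the numbers were not treated as pairs. The members and lists were chosen with earlier results of these data known. Array values are given for the 16 called members with the largest differences, paralogue pairs and members with opposite probe sets; from the other lists the 4 called genes with the largest differences are named, and others are marked. The fit was tested on simulated data with known changes.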

Additional observations from a re-analysis of the deposited data

How the results depend on the processing

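Of the 19 called members, 10 kept call and direction in each of the 12 alternative fits, 8 lost the call in at least 1, and 1 (Eif6) reversed with the mean of its probe sets (0.31); of the 24 uncalled members, 3 were called in at least 1. The 10 members lower became 4 without the intensity trend and 5 to 7 when 1 array was left out, and the 9 members higher became 7 and 8. Over all genes, the 2323 lower became 2279 without the trend and 1800 to 2308 without 1 array. The 2220 higher became 2190 and 1697 to 1965. A minimum log2 difference of 0.5 left 5 members higher and 3 lower. Over all genes it left 1455 of the 2220 higher and 1692 of the 2323 lower. Without chromosomes 3, 4, 17, 18 and X, 34 members were left, 5 of them higher and 8 lower. These calls are 38.2% of the 34, against 23.7% of the 14285 genes elsewhere (1483 higher and 1900 lower). The median differences of genes above background on the chromosomes left out were 0.26, 0.16, 0.16, −0.30 and −0.05, in that order. The 6 regulators higher became 2 to 6 without 1 array, and the 3 elongation and termination factors higher became 2 or 3. With the replicate block, 9 members were higher and 9 lower; Eif1ad (limma adjusted p = 0.0761) lost its call, as did Paip2b and Gigyf2 among the regulators, where Abcf1 gained one. With the mean of its probe sets the regulator Gigyf2 also reversed (−0.68), and Dohh, not called otherwise, was called lower (−0.60). Selenof fell by 2.85 to 2.98 without 1 array, and by 1.47 with the mean of its probe sets, 1 of which is under background. The cause of these changes was not tested. Fits without 1 array compared fewer arrays, and leaving out chromosomes left fewer genes to count.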
